A study of Mus musculus with 6 samples.

Results

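Milk, alveolar and prolactin signaling genes were followed pool by pool in mammary epithelial cells (MECs) from p53-null mouse glands, after transient tamoxifen exposure or sham treatment. The set is a list of 39 genes, namely the caseins, whey and other milk proteins, the enzymes of lactose and milk fat, the prolactin receptor pathway, and ion transport and serotonin genes of the lactating gland. A gene was measured where a probeset of the array was annotated to it alone, and the brightest such probeset stood for the gene. This gave 37 of the 39 genes, out of 17418 genes measured in all, and each of the 37 had 1 such probeset. Glycam1 and Prlr had no probeset annotated to them alone and were not analysed here.

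Both groups held 3 pools. In the tamoxifen group, Balb/c hosts wild type for p53 carried a 5 mg tamoxifen pellet for 13 weeks. In the control group, hosts of the same kind carried a sham pellet. Fat pads of hosts were cleared at 3 weeks of age, and 5 weeks later they received mammary duct tissue of female donors aged 8 weeks. All hosts had received p53-null Balb/c mammary duct fragments in cleared inguinal fat pads, and all were injected with 100 μg of 17β-estradiol (E2) 8 h before collection, so that no group was free of E2. The pools were collected 4 weeks after the pellets were removed, per the study's description of the arrays. The labels give 5 mice per pool in one place and 3 to 5 in another, and they differ from the methods on the array type and on host age at pellet implantation, which the labels give as 8 weeks and the methods as later. The MECs were released by collagenase digestion with no sort described. The transplanted tissue was p53-null and the fat pad around it the host's in both groups, which differ by treatment and not by genotype. Mean intensity per array was 395 to 403 in tamoxifen and 396 to 400.1 in control pools. Arrays scaled to a common brightness would also read alike. The normalization is not stated, so these means cannot show whether a pool stood apart before it. Intensity is given on the linear scale as deposited, differences are log2 fold changes of tamoxifen over control with the SE of the limma fit, and a gene passed the test at a Benjamini-Hochberg adjusted p under 0.05 over all 22369 probesets.

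In the alveolus, prolactin binds its receptor on secretory luminal cells and activates the kinase JAK2, which phosphorylates the transcription factors STAT5A and STAT5B. These enter the nucleus and turn on milk protein genes and also CISH and SOCS2, which feed back on the receptor. Secretory cells then make caseins and whey proteins, build lactose in the Golgi, and bud fat droplets into milk. In glands that are not lactating, milk protein transcripts are found at lower levels and follow the hormonal state of the animal.

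No member passed the test after adjustment. The widest differences were in 3 caseins, Csn1s2a, Csn2 and Csn1s1, with lower values in all 3 tamoxifen pools, while Ltf had higher values in all 3 and the other members of the milk protein groups ranged from lower values to full overlap. Of the 37 genes, 26 had a negative and 11 a positive log2 fold change, where 56.0% of all 17418 genes had a negative one. Their median was -0.17, against -0.02 over all genes. Adjusted p was under 0.05 for 0 members by limma and for 0 by the equal-variance test without moderation. Over all genes, 0.103% passed as lower and 0.304% as higher by limma, and 14 of 17418 genes passed the test without moderation. With shares this small, 0 of 37 does not set the members apart from other genes. At an unadjusted p under 0.05 by limma, 12 members were lower and 3 higher, beside 6.30% of all genes lower and 6.91% higher. By the unmoderated test, 8 members were lower and 3 higher, beside 1052 lower and 1153 higher of all 17418 genes. The limma count of 12 was 6 without control pool 1 and 7 without control pool 2. The median was -0.10 without tamoxifen pool 1. Fits with 1 pool left out also called fewer probesets over the whole array. Without control pool 1, 6 probesets passed adjustment as lower and 22 as higher, against 24 and 63 with all pools. The share of all genes at unadjusted p is not given for these fits, so whether the lower counts are particular to the members cannot be told. All 3 tamoxifen pools lay below all 3 control pools for 14 members, beside 12.4% of all genes, and above them for 4, beside 10.5% of all genes. An exact permutation test of 3 pools against 3 cannot go below p = 0.1. In pooled tissue of this kind, fewer cells of a type and less RNA per cell cannot be told apart.

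**Figure D1:**
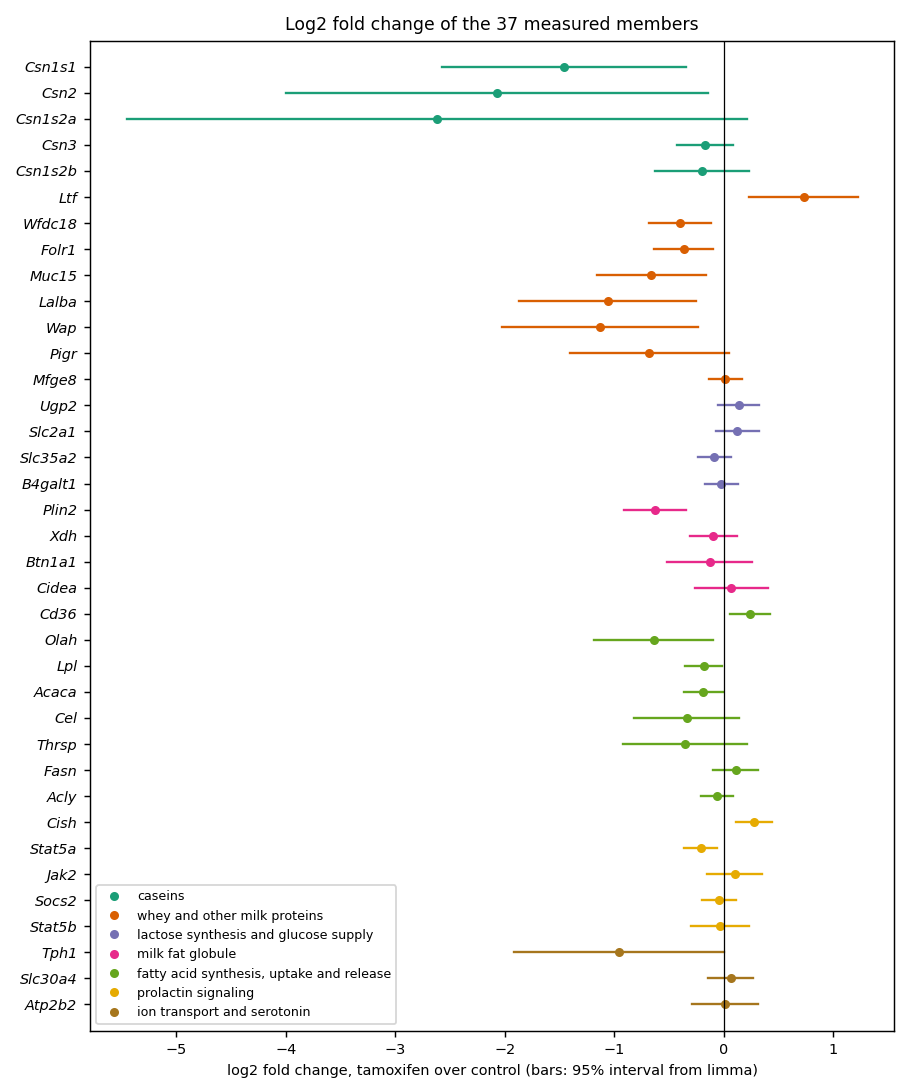
Log2 fold change of tamoxifen over control (horizontal axis) for the 37 measured genes, grouped by role, with bars for the 95% confidence interval of the limma fit. Csn1s2a, Csn2 and Csn1s1 lie furthest to the left, at -2.62, -2.07 and -1.46, and Ltf furthest to the right at 0.73.

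Caseins are the main proteins of mouse milk and assemble into the micelles that carry calcium. Their genes form a cluster on chromosome 5, and STAT5 binds gamma-activated sites (GAS) in the promoters of several milk genes. The 150 bases before the transcript start are shown for the 5 members with the most negative log2 fold changes, chosen with their values known, to let a reader set the promoters beside the pool values. The sequences are RefSeq's for the mouse build GRCm38.p6, given 5′ to 3′ in the direction of transcription, and capitals mark a match to TTCNNNGAA, the core of a GAS.
Csn1s1 chr5:87666058-87666207 (+ strand): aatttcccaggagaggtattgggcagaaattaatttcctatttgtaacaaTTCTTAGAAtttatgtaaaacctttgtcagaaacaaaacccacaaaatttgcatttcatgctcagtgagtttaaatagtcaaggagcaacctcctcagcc
Csn2 chr5:87699426-87699575 (- strand): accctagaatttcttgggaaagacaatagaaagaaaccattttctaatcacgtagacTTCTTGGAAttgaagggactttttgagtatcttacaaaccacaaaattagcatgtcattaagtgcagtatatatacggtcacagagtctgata
Csn1s2a chr5:87774300-87774449 (+ strand): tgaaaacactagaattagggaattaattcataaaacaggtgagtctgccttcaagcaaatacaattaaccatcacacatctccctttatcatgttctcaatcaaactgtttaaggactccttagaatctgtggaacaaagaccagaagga
Wap chr11:6638650-6638799 (- strand): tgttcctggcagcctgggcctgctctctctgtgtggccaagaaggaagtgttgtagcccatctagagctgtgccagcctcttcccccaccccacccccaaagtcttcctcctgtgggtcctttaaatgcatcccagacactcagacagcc
Lalba chr15:98482684-98482833 (- strand): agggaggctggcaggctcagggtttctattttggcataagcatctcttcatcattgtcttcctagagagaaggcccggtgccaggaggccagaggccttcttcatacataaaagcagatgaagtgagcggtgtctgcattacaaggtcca
The match lies at bases -100 to -92 of Csn1s1 and -93 to -85 of Csn2, and these letters are not in the shown windows of Csn1s2a, Wap and Lalba. Searched over the 250 bases before the start, the core is the same on both strands and was in 7.02% of 32851 RefSeq mouse promoters and in 5 of 38 promoters of 30 member genes (Csn1s1, Csn2, B4galt1, Glycam1 and 1 promoter of Prlr). The NFI palindrome (TTGGC and GCCAA with 5 bases between), the estrogen response element (GGTCA and TGACC with 3 bases between) and the sterol response element TCACNCCAC, searched on both strands, were in 0 member promoters, and in 0.03653%, 0.06392% and 1.053% of all promoters. A match is a match of letters and was not tested for binding.

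Csn1s2a, the alpha-S2A casein gene, had intensities of 44.9, 451 and 1434 in tamoxifen pools 1, 2 and 3, against 2322, 1679 and 1735 in the control pools. Every tamoxifen pool lay below every control pool, with tamoxifen pool 1 far below and tamoxifen pool 3 next to the controls. The means were 643 ± 714 in tamoxifen and 1912 ± 357 in control pools (SD, n = 3 each). The log2 fold change of -2.62 ± 1.17 (adjusted p = 0.437) was the most negative of all 17418 genes. It compares means of log2 values and corresponds to a 6.15-fold lower level, which is not the ratio of the linear means. The same gene had the widest range over the tamoxifen pools of all 17418 genes, 5.00 on the log2 scale, against 0.47 over the control pools.

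Csn2, encoding beta-casein, showed the same order of pools. It measured 403, 2307 and 3947 in the tamoxifen pools and 7672, 6157 and 5799 in the control pools. The groups did not overlap, and tamoxifen pool 1 was again the lowest. The means were 2219 ± 1774 in tamoxifen and 6542 ± 994 in control pools (SD, n = 3 each), with a log2 fold change of -2.07 ± 0.80 (adjusted p = 0.374). Its range over tamoxifen pools had rank 4 of all genes from the widest, 3.29 on the log2 scale, against 0.40 over control pools. Csn1s1, encoding alpha-S1 casein, had 632, 1421 and 2466 in the tamoxifen pools, against 4011, 3605 and 3186 in the control pools. Here too the groups were apart, with tamoxifen pool 1 lowest and tamoxifen pool 3 nearest to the controls. Csn1s1 averaged 1506 ± 920 in tamoxifen and 3601 ± 413 in control pools (SD, n = 3 each), and its log2 fold change was -1.46 ± 0.46 (adjusted p = 0.302). The size of these differences depended on which tamoxifen pools were in the fit. Without tamoxifen pool 1, the log2 fold changes of Csn1s2a, Csn2 and Csn1s1 were -1.23, -1.11 and -0.94, and without tamoxifen pool 3 they were -3.73, -2.75 and -1.92, with adjusted p of 0.263 or more in each of these fits.

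The other caseins did not separate the groups. Csn3, encoding kappa-casein, which caps the micelle, had 1459, 1713 and 1711 in tamoxifen pools against 1859, 1987 and 1648 in control pools. The groups overlapped through control pool 3, and the log2 fold change was -0.17 ± 0.11 (95% interval -0.43 to 0.09, adjusted p = 0.588). Csn1s2b, a second alpha-S2 casein gene, measured 14.2, 11.5 and 14.0 in tamoxifen pools and 18.0, 16.4 and 11.7 in control pools, values in the lowest 25% of probesets, and the groups overlapped (log2 fold change -0.20 ± 0.18, adjusted p = 0.731). In the order of the RefSeq annotation, Csn1s1, Csn2, Csn1s2a and Csn1s2b are followed by Prr27, Odam and BC037156, which are no caseins, and then by Csn3. These neighbours read between 9.94 and 34.9 in all 6 pools, with log2 fold changes of 0.05 for Prr27, 0.11 for Odam and 0.03 for BC037156 (adjusted p = 0.943, 0.840 and 0.931).

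**Figure D2:**
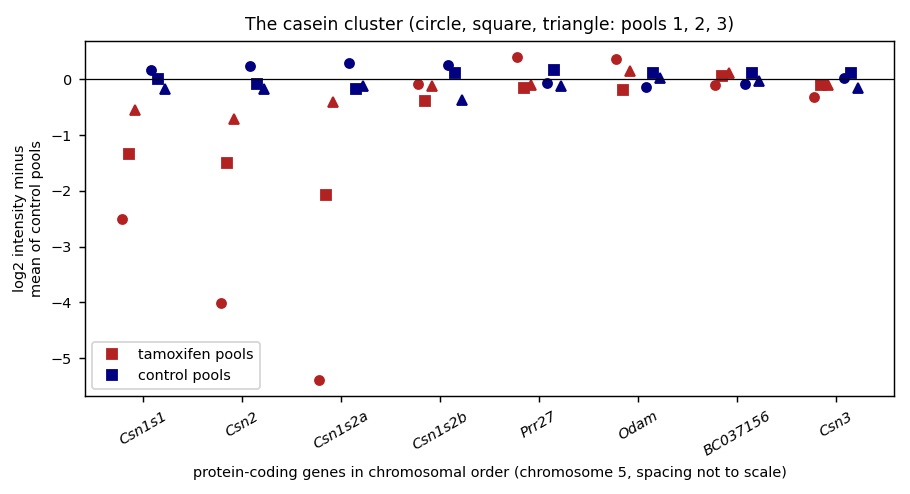
Log2 intensity of each pool minus the mean of the control pools (vertical axis) for the protein-coding genes of the casein cluster in chromosomal order; tamoxifen pools are red, control pools dark blue, and circle, square and triangle stand for pools 1, 2 and 3. Csn1s1, Csn2 and Csn1s2a spread below 0 in tamoxifen pools, with pool 1 lowest, while the control pools of all 8 genes and the tamoxifen pools of the other 5 genes stay near 0.

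Whey and other milk proteins gave 6 negative and 2 positive log2 fold changes among 8 measured genes, with a median of -0.53. Of all genes, 56.0% had a negative one. At unadjusted p under 0.05 by limma, 5 of the 8 were lower and 1 higher, beside 6.30% of all genes lower and 6.91% higher. Wap, the whey acidic protein gene, had 76.9, 159 and 176 in tamoxifen pools, against 392, 279 and 207 in control pools. All tamoxifen pools lay below all control pools, and both groups spread about equally on the log2 scale (ranges of 1.20 in tamoxifen and 0.92 in control pools). Wap averaged 138 ± 53.2 in tamoxifen and 293 ± 93.2 in control pools (SD, n = 3 each), with a log2 fold change of -1.13 ± 0.37 (adjusted p = 0.317). Lalba encodes alpha-lactalbumin, the partner of B4GALT1 in lactose synthase. It measured 285, 295 and 604 in tamoxifen pools, against 602, 1015 and 753 in control pools, so that tamoxifen pool 3 just reached control pool 1. The log2 fold change was -1.06 ± 0.33 (adjusted p = 0.299). Muc15, a mucin of the milk fat globule membrane, had 1593, 1764 and 1902 in tamoxifen pools and 3771, 2621 and 2141 in control pools. The groups were apart with control pool 1 the highest, and the log2 fold change was -0.66 ± 0.21 (adjusted p = 0.299), or -0.44 without control pool 1.

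Wfdc18, which encodes a small secreted protein with a whey acidic protein domain, measured 6230, 5849 and 6591 in tamoxifen pools against 9641, 7564 and 7534 in control pools. Every tamoxifen pool was lower (log2 fold change -0.40 ± 0.12, adjusted p = 0.274). Folr1, a folate receptor, had 179, 143 and 175 in tamoxifen pools and 228, 213 and 198 in control pools, also without overlap (log2 fold change -0.37 ± 0.11, adjusted p = 0.287). Pigr carries immunoglobulin A across the epithelium into milk. It read 303, 234 and 280.1 in tamoxifen pools and 587, 523 and 267 in control pools, where control pool 3 lay inside the tamoxifen range (log2 fold change -0.68 ± 0.30, adjusted p = 0.432). Mfge8, encoding lactadherin of the fat globule, had 6631, 6738 and 6821 in tamoxifen pools and 6597, 6864 and 6527 in control pools. The groups overlapped, with a log2 fold change of 0.01 (95% interval -0.14 to 0.17).

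Ltf, the gene of the iron-binding milk protein lactoferrin, ran the other way. It measured 5756, 5714 and 6046 in tamoxifen pools, against 2855, 4943 and 3103 in control pools. All tamoxifen pools lay above all control pools, and control pool 2 stood above the other controls. The log2 fold change was 0.73 ± 0.21 (adjusted p = 0.255). Leaving out 1 pool at a time gave 0.58 (without control pool 1) to 0.97 (without control pool 2), with adjusted p of 0.0575 to 0.524. Neutrophils also store lactoferrin. Of 10 measured neutrophil markers, 4 were higher and 6 lower with 0 at unadjusted p under 0.05. Their summed intensity was 658 to 768 in tamoxifen and 693 to 769 in control pools. One of them, S100a9, read 36.0 to 45.9 in tamoxifen and 26.6 to 46.1 in control pools. The arrays measure RNA and not stored protein, and the part of neutrophils in the Ltf values was not tested.

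**Figure D3:**
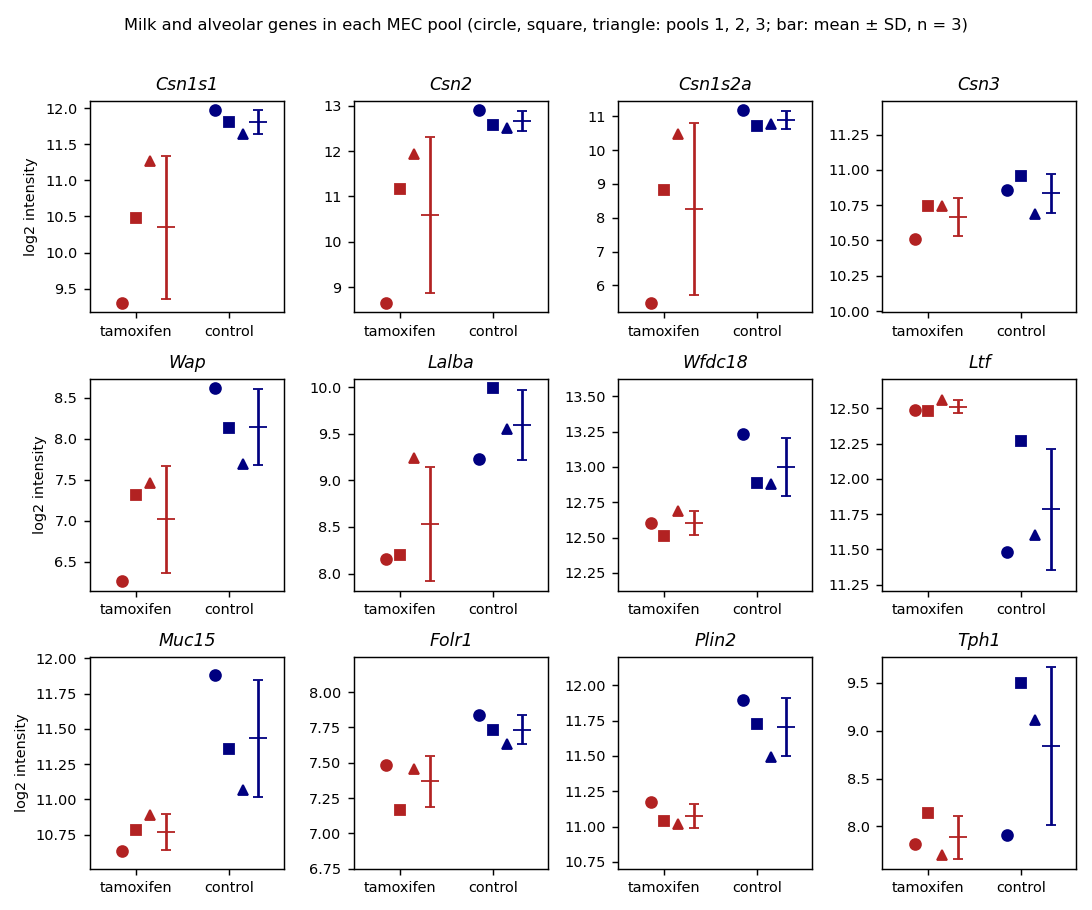
Log2 intensity (vertical axes, with limits of their own in each panel) in each pool for 12 milk and alveolar genes, with tamoxifen pools left of control pools, circle, square and triangle for pools 1, 2 and 3, and a bar for the mean ± SD of each group (n = 3). Csn1s1, Csn2, Csn1s2a and Wap do not overlap between the groups and have their lowest value in tamoxifen pool 1.

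The 4 genes of lactose synthesis and glucose supply had a median log2 fold change of 0.05, with 0 at unadjusted p under 0.05. Slc2a1, the glucose transporter GLUT1, had 6349, 6660 and 6659 in tamoxifen pools against 5489, 6260 and 6328 in control pools. The groups were apart by a narrow margin, at a log2 fold change of 0.12 (95% interval -0.07 to 0.32, adjusted p = 0.612). Ugp2 makes UDP-glucose. It measured 675, 763 and 740 in tamoxifen and 680.3, 634 and 667 in control pools, with overlap and a log2 fold change of 0.14 (95% interval -0.05 to 0.32, adjusted p = 0.545). Slc35a2, the UDP-galactose transporter of the Golgi, had 350.3, 350.4 and 368 in tamoxifen and 374, 379.8 and 379.8 in control pools, a non-overlapping but small difference (log2 fold change -0.09, adjusted p = 0.662). B4galt1, the catalytic subunit of lactose synthase, stood at -0.02 (adjusted p = 0.924).

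Among the milk fat globule genes, Plin2 had the smallest adjusted p of all members. It encodes perilipin 2, which coats lipid droplets. Plin2 measured 2313, 2104 and 2075 in tamoxifen pools, against 3814, 3395 and 2878 in control pools. Every tamoxifen pool was below every control pool. The means were 2164 ± 130 in tamoxifen and 3362 ± 469 in control pools (SD, n = 3 each), with a log2 fold change of -0.63 ± 0.12 (95% interval -0.91 to -0.34, adjusted p = 0.117). Over 17 alternative fits the log2 fold change was -0.74 to -0.51 and the adjusted p 0.0409 to 0.354. The lowest came with array quality weights, a setting under which 163 probesets were lower and 356 higher past the threshold, against 24 and 63 in the fit reported here, and the highest came without tamoxifen pool 3. Xdh, which acts with butyrophilin in fat globule budding, had 1466, 1403 and 1495 in tamoxifen and 1490, 1736 and 1454 in control pools, which overlap (log2 fold change -0.10, adjusted p = 0.742). Btn1a1, encoding butyrophilin, and the lipid droplet gene Cidea also overlapped, with log2 fold changes of -0.13 and 0.07 (adjusted p = 0.818 and 0.897).

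The 8 genes of fatty acid synthesis, uptake and release had a median of -0.18. At unadjusted p under 0.05 by limma, 3 were lower and 1 higher, beside 6.30% of all genes lower and 6.91% higher. Olah, the thioesterase that ends chains at medium length in milk fat, had 54.6, 43.8 and 47.3 in tamoxifen pools against 70.1, 106 and 57.9 in control pools. All tamoxifen pools were lower (log2 fold change -0.64 ± 0.22, adjusted p = 0.338), and the log2 fold change was -0.40 without control pool 2. Acaca, acetyl-CoA carboxylase, measured 251, 271 and 259 in tamoxifen and 315, 287 and 288 in control pools, without overlap (log2 fold change -0.19, adjusted p = 0.386). Lpl, the lipase that frees fatty acids from plasma triglyceride, had 1129, 1211 and 1219 in tamoxifen and 1366, 1296 and 1378 in control pools, also without overlap (log2 fold change -0.18, adjusted p = 0.373). Cd36, a fatty acid transporter, was on the other side, with 4194, 4010.4 and 4198 in tamoxifen and 3237, 3681 and 3597 in control pools. Its groups were apart, at a log2 fold change of 0.24 ± 0.08 (adjusted p = 0.305).

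Acly, which makes cytosolic acetyl-CoA, was lower in every tamoxifen pool by a narrow margin (1168, 1198 and 1175 in tamoxifen against 1252, 1231 and 1221 in control pools), at a log2 fold change of -0.06 (adjusted p = 0.745). Fasn, the fatty acid synthase, Cel, the bile salt lipase of milk, and Thrsp, a promoter of medium-chain synthesis, overlapped between groups, with log2 fold changes of 0.11, -0.34 and -0.35 (adjusted p = 0.681, 0.557 and 0.618). Adipocytes and endothelial cells also express Cd36 and Lpl. All 10 measured adipocyte markers had positive log2 fold changes (median 0.33). Of these, 5 were higher at unadjusted p under 0.05, beside 6.91% of all genes. Their summed intensities were 3937 to 4536 in tamoxifen and 3786 to 3846 in control pools. For endothelial markers 7 of 8 were positive (median 0.21), and 3 were higher at unadjusted p under 0.05. Their sums were 15510 to 16363 in tamoxifen and 12551 to 14729 in control pools. The part of these cells in the Cd36 and Lpl values was not tested.

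Among 5 measured genes of the prolactin pathway, the median log2 fold change was -0.03. At unadjusted p under 0.05 by limma, 1 was lower and 1 higher, beside 6.30% of all genes lower and 6.91% higher. Cish, an inhibitor that STAT5 induces, measured 974, 970 and 931 in tamoxifen pools, against 827, 758 and 786 in control pools. Every tamoxifen pool was higher. Cish averaged 958 ± 23.6 in tamoxifen and 791 ± 34.7 in control pools (SD, n = 3 each), with a log2 fold change of 0.28 ± 0.07 (95% interval 0.11 to 0.44, adjusted p = 0.205). Stat5a, encoding the main STAT5 protein of the mammary gland, had 1038, 1032 and 1030 in tamoxifen pools, against 1160, 1204 and 1224 in control pools. The tamoxifen pools were close together and below all controls. The means were 1033 ± 4.51 in tamoxifen and 1196 ± 32.7 in control pools (SD, n = 3 each), and the log2 fold change was -0.21 ± 0.06 (95% interval -0.36 to -0.06, adjusted p = 0.275).

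Stat5b had 491, 646 and 539 in tamoxifen and 562, 573 and 570.5 in control pools. The tamoxifen pools lay on both sides of the controls, at a log2 fold change of -0.03 (95% interval -0.30 to 0.23). Socs2, another STAT5-induced inhibitor, measured 94.7, 93.7 and 98.2 in tamoxifen and 95.9, 98.3 and 101 in control pools, with overlap and a log2 fold change of -0.04 (95% interval -0.20 to 0.11). Jak2 read 2382, 2631 and 2370.3 in tamoxifen and 2026, 2525 and 2363 in control pools, where control pool 1 was the lowest of all (log2 fold change 0.10, adjusted p = 0.774).

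Tph1, the enzyme that starts serotonin synthesis in the alveolar epithelium, had the most negative value outside the milk proteins. It measured 226, 281 and 207 in tamoxifen pools, against 241, 725 and 553 in control pools. Control pool 1 lay inside the tamoxifen range, and the other controls lay above it. The means were 238 ± 38.4 in tamoxifen and 506 ± 245 in control pools (SD, n = 3 each), with a log2 fold change of -0.96 ± 0.40 (adjusted p = 0.403). It was -1.42 (adjusted p = 0.111) without control pool 1 and -0.63 (adjusted p = 0.628) without control pool 2. Mast cells also express Tph1. Of 8 measured mast cell markers 7 had positive log2 fold changes (median 0.44). At unadjusted p under 0.05, 5 of the 8 were higher, beside 6.91% of all genes. The markers summed to 3869 to 4213 in tamoxifen and 3182 to 3889 in control pools. The part of mast cells in the Tph1 values was not tested. Slc30a4, which loads zinc into milk, had 1165, 1113 and 1099 in tamoxifen and 983, 1170 and 1083 in control pools, with overlap (log2 fold change 0.06, adjusted p = 0.830), and the calcium pump gene Atp2b2 stood at 0.01 (adjusted p = 0.989).

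The order of the tamoxifen pools was shared by several members. Tamoxifen pool 1 was the lowest and tamoxifen pool 3 the highest for 11 of the 37 members, beside 11.0% of all genes. The 11 were Csn1s1, Csn2, Csn1s2a, Wap, Lalba, Muc15, Cel, Thrsp, Lpl, Slc35a2 and Mfge8. Their log2 range over the tamoxifen pools ran from 0.04 for Mfge8, 0.07 for Slc35a2 and 0.11 for Lpl to 5.00 for Csn1s2a. The median log2 deviation of the caseins from their mean over all pools was -1.77, -0.46 and 0.19 in tamoxifen pools 1, 2 and 3, against 0.89, 0.74 and 0.56 in the control pools. A wide spread in tamoxifen was not general to the set. The log2 range was wider in tamoxifen than in control pools for 15 of 37 members, beside 56.2% of all genes.

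**Figure D4:**
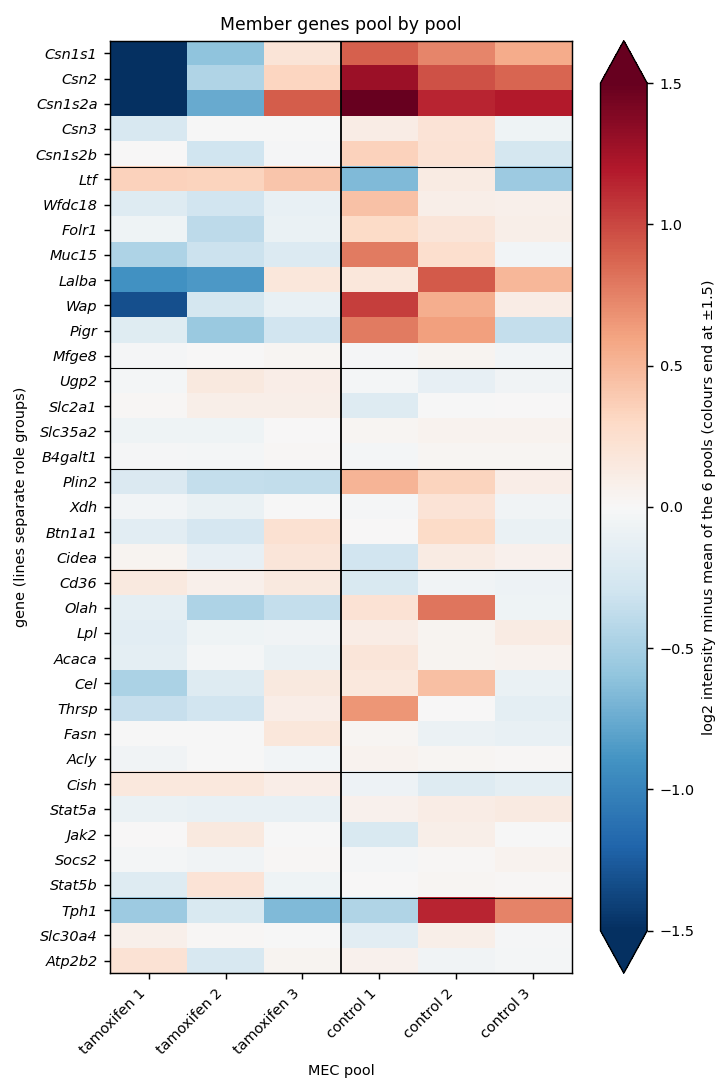
Log2 deviation of each pool from the gene's mean over all 6 pools (colour scale, ending at ±1.5) for the 37 genes in rows by role, with tamoxifen pools left of control pools. Csn1s2a, Csn2 and Csn1s1 show the deepest negative values in tamoxifen pool 1, and Ltf and Cish are positive in all 3 tamoxifen pools.

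Related genes outside the set were read from lists of the same pathways. Of 20 alveolar regulators and prolactin pathway genes, 0 passed the test in either direction, and the median was 0.03. At unadjusted p under 0.05, 2 were lower and 3 higher, beside 6.30% of all genes lower and 6.91% higher. Igf2, a growth factor downstream of prolactin in the mammary gland, had 480, 422 and 500.5 in tamoxifen pools against 273, 308 and 318 in control pools, all apart (log2 fold change 0.64 ± 0.10, adjusted p = 0.0793). Ghr, the growth hormone receptor, measured 1175, 1228 and 1343 in tamoxifen and 627, 856 and 897 in control pools, also apart (log2 fold change 0.67 ± 0.15, adjusted p = 0.163). Elf5, the transcription factor of the alveolar lineage, was picked after its values were seen. It had 946, 868 and 1101 in tamoxifen pools and 2104, 1459 and 1266 in control pools, with no overlap (log2 fold change -0.70 ± 0.20, adjusted p = 0.258).

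Milk lipid genes outside the set gave 1 call among 25 measured, with a median of -0.05. Insig1, which restrains sterol synthesis, rose in tamoxifen pools, with 854, 927 and 949 against 580.3, 597 and 596 in control pools (log2 fold change 0.62 ± 0.07, limma adjusted p = 0.0343). This call was lost in the test without moderation (adjusted p = 0.105) and in 6 of 6 fits with 1 pool left out (adjusted p = 0.0924 to 0.204). Scd2, a fatty acid desaturase, stood at 0.48 (adjusted p = 0.0835). Among 17 ion and water transporters, with a median of -0.03, the water channel gene Aqp5 fell, with 459.8, 483 and 604 in tamoxifen pools against 1023, 1178 and 1369 in control pools (log2 fold change -1.21 ± 0.15, limma adjusted p = 0.0431). This call too was lost in the test without moderation (adjusted p = 0.198) and in 6 of 6 fits with 1 pool left out (adjusted p = 0.0899 to 0.184). Atp2b4, a plasma membrane calcium pump, stood at 0.55 (adjusted p = 0.0835). None of the 12 other secreted milk components and of the 5 other lactose and nucleotide sugar genes passed. Csf1, Muc4, Slc35a1 and Hk2 had the smallest p-values of these lists, with log2 fold changes of 0.33, -0.84, -0.26 and 0.26 (adjusted p = 0.145, 0.182, 0.316 and 0.611).

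**Figure D5:**
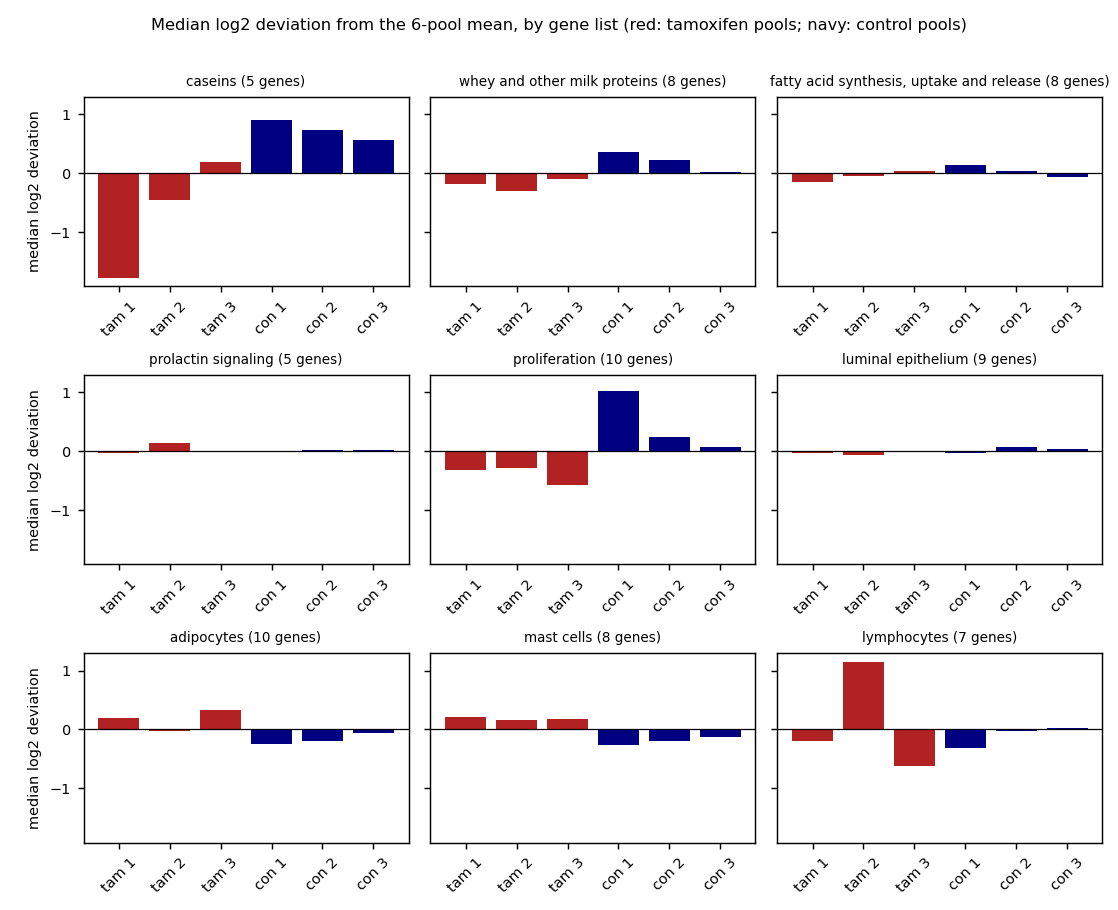
Median log2 deviation from the mean of the 6 pools (vertical axes, the same in all panels) in each pool, with tamoxifen pools (red) left of control pools (dark blue), for 4 member groups, the proliferation genes and 4 marker lists. The caseins are lowest in tamoxifen pool 1 at -1.77, the proliferation genes highest in control pool 1 at 1.02, and the lymphocyte markers highest in tamoxifen pool 2.

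Markers of mammary epithelium were measured in every pool, as the label says, and so were markers of stromal cells. The 9 measured luminal epithelial markers summed to 42232 to 44138 in tamoxifen and 42832 to 45024 in control pools, with a median log2 fold change of -0.08, and the 8 basal markers summed to 16632 to 17936 in tamoxifen and 16538 to 20330 in control pools, with a median of -0.06. The 8 fibroblast markers summed to 23077 to 25024 in tamoxifen and 23429 to 24171 in control pools (median 0.00, 1 lower at unadjusted p under 0.05), and the 8 macrophage markers to 2595 to 3896 in tamoxifen and 2722 to 2821 in control pools (median 0.12, 0 at unadjusted p under 0.05). Proliferation genes were lower for 10 of 10 measured, with a median of -0.76. At unadjusted p under 0.05, 6.30% of all genes and 7 of the 10 proliferation genes were lower. Their median deviation was -0.32, -0.28 and -0.58 in tamoxifen pools, against 1.02, 0.25 and 0.07 in control pools, where control pool 1 stood high. Lymphocyte markers summed to 2336, 5906 and 1861 in tamoxifen and 2240, 2740 and 3089 in control pools, where tamoxifen pool 2 stood high. Their part in the members' values was not tested. With control pool 1 and tamoxifen pool 2 both left out, an alternative added after seeing the data, Csn1s2a, Csn2, Csn1s1 and Plin2 had log2 fold changes of -2.75, -2.24, -1.44 and -0.51.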

How the data were processed

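Per the labels, RNA of MECs from 3 tamoxifen and 3 control pools was hybridised to 6 Affymetrix arrays, 1 per pool. The authors deposited 1 intensity per probeset and array on a linear scale. MAS5 and mm9 stand in the submitters' processing notes with no stated role. For background correction and normalization, the method is not stated in the sources used here. An array normalized by total brightness hides a shift common to all genes, and the number of arrays limits the precision.

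Of 22369 probesets, 18286 had 1 gene symbol, 1276 several and 2807 none. Entrez IDs of 18097 were found in RefSeq's GRCm38.p6 table, and 0 symbols were updated. Promoters come from RefSeq's GRCm38.p6 table. Intensities were taken to log2, unfiltered and without an offset, and fitted in limma 3.58.1 under R 4.3.3. Group was the single term, with 4 residual and 2.35 prior degrees of freedom, and two-sided p-values received Benjamini-Hochberg adjustment over the 22369 probesets. The equal-variance test without moderation, named in the study's statistics, was run on the same values. The fit was tested on simulated data. Figures used Python 3.11.15 and matplotlib 3.10.9.

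The members and lists were chosen with earlier results of these data known. Pool values were printed for members with an unadjusted p under 0.05, the 2 smallest p-values or the highest mean of a role group, and for caseins, Wap, Lalba and the STAT5 pathway. Outside this rule, pool values were also printed for Pigr, Mfge8, Slc35a2 and Acly. The remaining members were given by log2 fold change. In lists, genes passing the test and up to 2 with the smallest p were named. Alternatives were an offset of 32, filters at the 25th and 50th percentile of intensity, median centring, quantile normalization, the mean of a gene's probesets, array weights, a trended and robust fit, the unmoderated test, a replicate block and leaving out each pool. For Insig1 and Aqp5 they were added after seeing the data. Since the labels give pools of mice without animal identities, the p-values measure the spread between pools.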

Additional observations from a re-analysis of the deposited data

How the results depend on the processing

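The alternatives were run for the 26 members whose pool values were printed by rule. Of their values, 432 kept their direction and their side of the adjusted threshold, 5 turned sign and 1 moved past the threshold. No member passed in the main fit, so the side kept was that of not passing. Array weights gave 1 member past the adjusted threshold (Plin2, adjusted p = 0.0409, log2 fold change -0.60), 5 members higher at unadjusted p under 0.05 and a median of -0.083. Over all probesets, that setting called 163 lower and 356 higher past adjustment. Leaving out 1 pool at a time gave 6 to 11 members lower and 2 to 3 higher at unadjusted p, 0 past adjustment, and medians of -0.20 to -0.10. The lowest count, 6, came without control pool 1, with 7 without control pool 2 and 8 without tamoxifen pool 1. The median of -0.10 came without tamoxifen pool 1. Over all probesets, the fits with 1 pool left out called 2 to 6 lower and 18 to 27 higher past adjustment. With all pools these were 24 and 63. The falling member counts are at unadjusted p and these are past adjustment. They cannot show whether the fall was particular to the members. Without control pool 1 and tamoxifen pool 2, chosen after seeing the data, 7 members were lower, 2 higher and 0 past adjustment, with a median of -0.10. The sign turned in some fits with pools left out, where log2 fold changes ran from -0.39 to 0.022 for Csn1s2b, -0.040 to 0.17 for Jak2, -0.15 to 0.054 for Stat5b and -0.00086 to 0.13 for Slc30a4, and it turned for Jak2 with array weights (-0.00074). The cause was not tested.

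Same-numbered pools did not deviate together (correlations of 0.05, 0.01 and -0.04), so the numbers were not taken as pairs. With a replicate block, 10 members were lower and 3 higher at unadjusted p and 0 passed adjustment. Over all probesets, 2 passed adjustment as lower and 13 as higher with the block, against 24 and 63 without it. Outside the members, Insig1 and Aqp5 each lost their call in 9 of 17 alternatives, the block among them (adjusted p = 0.170 and 0.0600), and kept their direction in all 17. Dim members such as Csn1s2b carry little signal, and 3 pools a group leave wide intervals for the caseins.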

Other observations

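The genes with the widest log2 range over the tamoxifen pools were picked after their values were seen. Csn1s2a had rank 1 of 17418 genes and Csn2 rank 4, and immunoglobulin and B cell genes stood among the first 12, namely Igkv9-120, Igh, Cxcr5, Cr2, Igkv5-39, Ms4a1 and Igk. Igkv9-120 had intensities of 330.5, 471 and 25.9 in tamoxifen pools and 142, 306 and 412 in control pools, so that its lowest pool was tamoxifen 3, whereas the lowest pool of Csn1s2a was tamoxifen 1.

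Hormone-sensing luminal genes were read beside the alveolar ones. Cited1 had 1232, 1139 and 1261 in tamoxifen pools, against 906, 984 and 804 in control pools, without overlap (log2 fold change 0.43 ± 0.10, limma adjusted p = 0.163). Prom1 had 253, 264 and 261 in tamoxifen pools, against 322, 575 and 552 in control pools, also without overlap (log2 fold change -0.85 ± 0.22, limma adjusted p = 0.225). Of 5 measured genes of this list, 0 passed adjustment. At unadjusted p under 0.05 by limma, 1 was higher and 2 lower, beside 6.91% of all genes higher and 6.30% lower.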
